A study of Mus musculus with 9 samples.

Results

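10 genes of the Notch pathway were followed across 9 RNA sequencing libraries of mouse testis. They were the receptors Notch1, Notch2 and Notch3, the ligands Jag1 and Jag2, the target genes Hes1, Hey1 and Heyl, and the glycosyltransferases Gxylt1 and Pofut1. All 10 were found by gene symbol among the 55401 genes of the deposited table. They had been picked with earlier results of the same libraries known, so their values are given as a description, with no p-value printed for any of them. Those past a threshold are counted further below, and nothing is read from these counts. Every mouse had received busulfan, an alkylating drug that kills dividing germ cells, so all 3 groups are testes with few germ cells. The BP group (replicates 5, 6 and 7) was given PBS and served as the control. The BE group (replicates 6, 7 and 8) was given exosomes, small vesicles released by cells, from the blood of wild-type mice. The BdE group (replicates 5, 6 and 7) was given exosomes from mice with an imbalanced gut microbiota. The labels state no strain, age, dose or interval before sampling, and do not say whether each library came from a separate animal.

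Notch receptors are read out by contact between neighbouring cells. A ligand such as Jagged pulls on the receptor, proteases then cut it, and the freed intracellular domain enters the nucleus, where it joins the DNA-binding protein RBPJ and switches on repressors of the HES and HEY families. The outer part of the receptor is a chain of EGF repeats that carry O-linked sugars. POFUT1 adds fucose, POGLUT1 adds glucose, GXYLT1 adds xylose to that glucose and XXYLT1 lengthens the chain by another xylose. In mouse testis, Sertoli cells receive Notch signals from spermatogonia that carry JAG1, and Notch is also used in blood vessels, where NOTCH1 acts in endothelial cells and NOTCH3 and HEYL in mural cells.

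The largest difference among the 10 genes was in Gxylt1, which lay between 42.8 and 68.2 TMM-scaled CPM (counts brought to one library size) in 7 libraries and at 7.20 and 6.24 CPM in BE 7 and BE 8. Hes1 lay higher than in every BP library in all 3 BdE libraries and in BE 7 and BE 8. Notch1 lay lower than in every BP library in the same 5 libraries. The third BE library, BE 6, lay within the BP range for 6 of the 10 genes. The plot of the 10 genes by library shows these values.

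**Figure D1:**
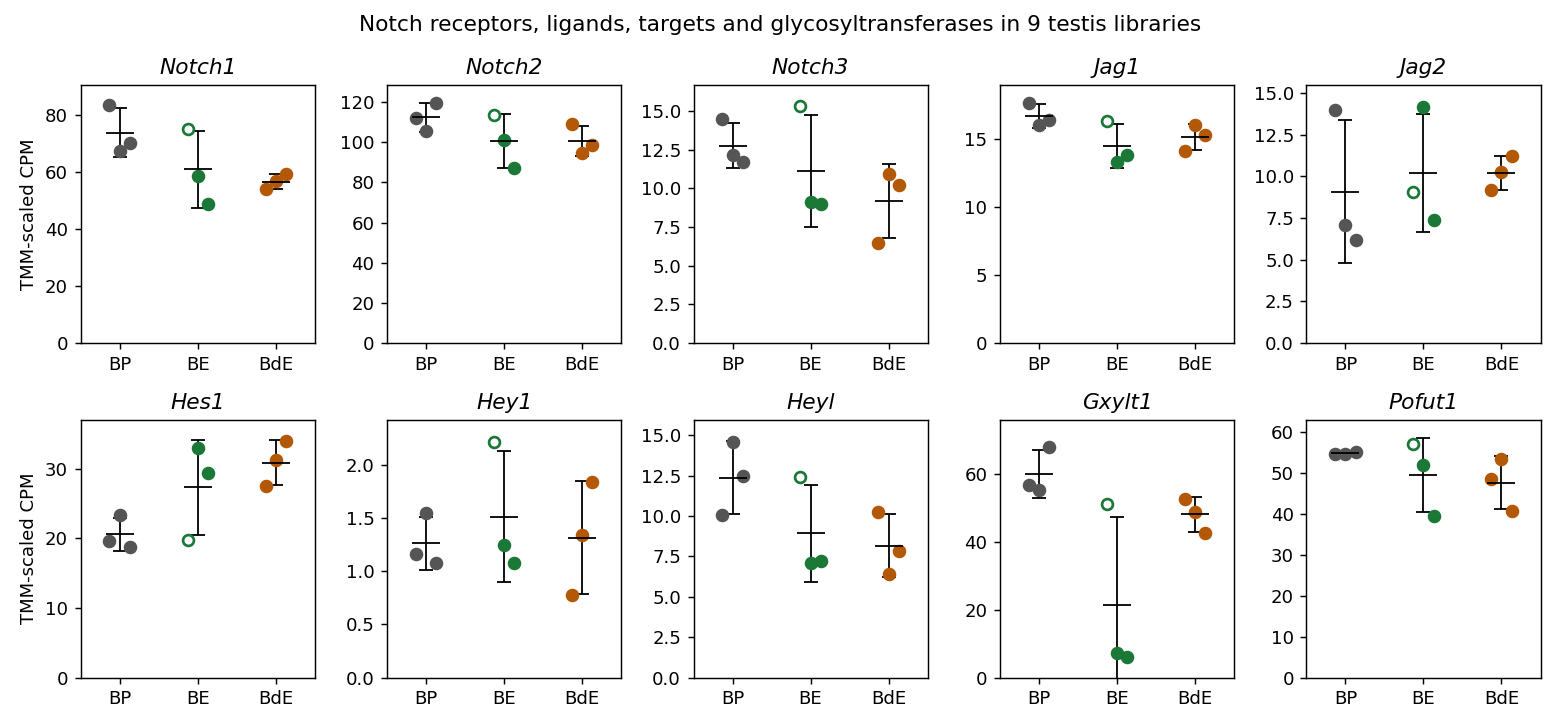
TMM-scaled CPM (vertical axes, each starting at 0) of the 10 genes in the BP, BE and BdE libraries; points are libraries, the open circle is BE 6, and the horizontal line and bars are the mean and SD of 3 libraries. Gxylt1 stood at 7.20 and 6.24 CPM in BE 7 and BE 8 and at 42.8 CPM or more in the other 7 libraries (its lower SD bar in BE runs past 0), and Hes1 was above the BP range in all 3 BdE libraries.

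Promoter sequence was looked at because RBPJ binds a short core motif, TGGGAA, in promoters of its target genes. The 250 bases upstream of the annotated start were taken from RefSeq (build GRCm38.p6) and searched on both strands for TGGGAA (reverse complement TTCCCA) and for the longer GTGGGAA, which contains it. Of 32851 mouse promoters in that table, 21.6% held TGGGAA and 5.4% held GTGGGAA. Of the 10 genes 7 were matched, all but Hes1, Hey1 and Heyl, and 0 of the 7 windows held either motif. Their GC content was 57.2 to 87.2%, against a median of 52.4% over all promoters. Among 54 other Notch pathway genes 43 were matched, 15 of them with TGGGAA and 6 with GTGGGAA, against 24.1% and 6.2% of all genes in the table (Lfng, Psen2, Spen, Hes5, Hes7 and Hey2). A match is a stretch of letters and does not show binding. The promoters shown are of Gxylt1, the gene with the largest difference (chr15:93275180-93275429, minus strand), of Hes5, a repressor whose window holds 2 matches (chr4:154960673-154960922, plus strand, 226 to 221 and 82 to 77 bases upstream of the start), and of Cyp26b1, the tested pathway gene with the largest fold change in BdE (chr6:84593811-84594060, minus strand). Capitals mark TGGGAA or TTCCCA.
Gxylt1: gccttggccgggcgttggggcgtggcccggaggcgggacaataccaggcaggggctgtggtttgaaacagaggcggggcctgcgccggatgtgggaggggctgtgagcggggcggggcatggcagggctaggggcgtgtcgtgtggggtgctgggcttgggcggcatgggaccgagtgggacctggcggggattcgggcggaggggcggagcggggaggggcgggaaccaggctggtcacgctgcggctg
Hes5: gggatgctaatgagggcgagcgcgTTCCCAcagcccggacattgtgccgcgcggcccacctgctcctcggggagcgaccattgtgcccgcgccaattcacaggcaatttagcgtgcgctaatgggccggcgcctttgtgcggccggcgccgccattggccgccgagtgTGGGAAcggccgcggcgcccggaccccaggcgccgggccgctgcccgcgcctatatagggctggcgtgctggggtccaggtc
Cyp26b1: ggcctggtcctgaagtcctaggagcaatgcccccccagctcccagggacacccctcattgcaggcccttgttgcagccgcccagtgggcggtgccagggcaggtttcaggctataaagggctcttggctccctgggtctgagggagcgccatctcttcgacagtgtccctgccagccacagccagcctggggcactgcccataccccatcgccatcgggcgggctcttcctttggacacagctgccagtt

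Library totals lay between 57923652 and 70103125 counts. Of the 55401 genes, 14570 (26.3%) had an FPKM (fragments per kilobase of gene, scaled to library size) of at least 1 in at least 3 libraries and were tested, and 9 of the 10 genes passed this filter. Gxylt1 reached it in 7 libraries, Notch3 and Jag2 in 6 libraries each, and Hey1 in 0. Markers of Sertoli and Leydig cells were present in all libraries, whereas 6 photoreceptor markers summed to at most 0.877 FPKM, with Crx at 0; these were included because the extraction text names retinas. The libraries also differed along gene length: Spearman's rho across genes between length and the level relative to the 9-library mean was 0.173 to 0.245 in BP and 0.233 in BE 6, but -0.212 to -0.189 in BE 7 and BE 8 and -0.239 to -0.086 in BdE. Across genes, the mean Pearson r with the BP libraries was 0.973 for BE 6, 0.933 for BE 7 and 0.944 for BE 8. Mitochondrial transcripts took 7.10 to 8.01% of counts in BP libraries and 7.19% in BE 6, but 14.5 and 14.2% in BE 7 and BE 8 and 11.8 to 13.4% in BdE. The part of gene length and of the mitochondrial share in the results that follow was not tested, beyond the values given with the length trend removed.

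Per length, the genes spanned a wide range of levels. In BP the mean level was 9.41 ± 0.499 FPKM for Notch2, 9.11 ± 1.12 for Hes1 and 8.07 ± 0.81 for Gxylt1 (SD, n = 3), and the libraries of neighbours in this order overlapped. Pofut1 (4.99 ± 0.0716 FPKM) and Notch1 (4.68 ± 0.622 FPKM) overlapped each other and lay below them. Jag1 (2.59 ± 0.173 FPKM) overlapped with Heyl (2.18 ± 0.384 FPKM), and Notch3 (1.43 ± 0.192 FPKM) overlapped with Jag2 (1.18 ± 0.576 FPKM). Hey1 was lowest at 0.344 ± 0.0729 FPKM. Notch2 and Hes1 were also the top pair in BE and BdE, but with Hes1 first, at 11.4 ± 2.45 FPKM in BE and 13.0 ± 1.22 FPKM in BdE. In BdE the Hes1 libraries no longer overlapped those of Notch2 (8.003 ± 0.624 FPKM). Gxylt1 was the third in BP and BdE and the fifth in BE, where its SD of 3.51 FPKM exceeded its mean of 2.86 FPKM.

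Among the receptors, Notch1 (chr2:26457903-26516663, minus strand, GRCm38) is the endothelial and developmental receptor best known of the family. It lay at 83.5, 67.4 and 70.2 CPM in BP 5, 6 and 7, at 75.2, 58.5 and 48.8 CPM in BE 6, 7 and 8, and at 54.0, 56.7 and 59.1 CPM in BdE 5, 6 and 7. The BdE libraries all lay below the BP libraries, and in BE only BE 6 fell within the BP range. The log2 fold change from the fit of the 6 BP and BdE libraries was -0.38 (SE 0.0998). For BE against BP, from the fit of all 9 libraries, it was -0.28 (SE 0.160), and without BE 6 it was -0.46 (SE 0.124). Here and below, BE 6 was singled out with its likeness to BP already known. Values and calls without it are therefore a description of BE 7 and BE 8, and their SEs leave out the spread that BE 6 brought. Both comparisons use the same BP libraries. Notch1 is a long gene, at 16.2 kb against a median of 4.11 kb over genes tested, and with the trend on gene length removed its value in BdE was -0.24. Read counts in a tissue do not tell fewer cells of a type from less RNA per cell, here or for any gene that follows.

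Notch2 (chr3:98013527-98150361, plus strand) was the most abundant receptor. It lay at 112, 106 and 119.7 CPM in BP, at 114, 101 and 87.0 CPM in BE, and at 109, 94.7 and 98.5 CPM in BdE. The groups overlapped in every pairing. Its log2 fold change was -0.16 in both BE (SE 0.113) and BdE (SE 0.0815) against BP, and in BdE it was -0.01 with the length trend removed. Notch3 (chr17:32120820-32166852, minus strand), the receptor of mural cells, lay at 14.5, 12.2 and 11.7 CPM in BP, at 15.3, 9.12 and 8.98 CPM in BE, and at 6.48, 10.9 and 10.2 CPM in BdE. BE 6 held the most Notch3 of all libraries, while BE 7, BE 8 and the BdE libraries lay below the BP range. The log2 fold change was -0.20 (SE 0.270) in BE, -0.50 in BE without BE 6, and -0.47 (SE 0.219) in BdE, or -0.29 without BdE 5. An antisense gene, Gm17276, overlaps Notch3 and held 14 to 390 counts beside 443 to 1071 counts for Notch3. No source used here states whether strand was used in counting, so reads of the pair may not be fully separated.

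The ligands differed less. Jag1 (chr2:137081456-137116644, minus strand), which spermatogonia and endothelial cells present to their neighbours, lay at 17.7, 16.1 and 16.4 CPM in BP, at 16.3, 13.3 and 13.8 CPM in BE, and at 14.1, 16.03 and 15.3 CPM in BdE. The highest BdE library and the lowest BP library were nearly level, so the groups were separated only narrowly. For Jag1 the log2 fold change was -0.20 (SE 0.126) in BE and -0.14 (SE 0.0985) in BdE, or -0.05 in BdE with the length trend removed. Jag2 (chr12:112907819-112929776, minus strand), the other Jagged ligand, lay at 14.0, 7.09 and 6.16 CPM in BP, at 9.05, 14.2 and 7.38 CPM in BE, and at 9.19, 10.3 and 11.2 CPM in BdE. BP 5 and BE 7 were the highest, and all groups overlapped. With this spread, the log2 fold change was 0.17 in each comparison with BP (SE 0.347 in BE, 0.324 in BdE). Leaving out BP 5 made both 0.62, leaving out BP 7 made both -0.05, and leaving out BE 7 made the BE value -0.14.

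Of the target genes, Hes1 (chr16:30064384-30067796, plus strand) encodes a repressor induced by Notch in Sertoli cells and many other cell types. It lay at 19.7, 23.3 and 18.8 CPM in BP, at 19.7, 32.9 and 29.3 CPM in BE, and at 27.5, 31.2 and 34.0 CPM in BdE. The BdE libraries lay above every BP library, and BE split into BE 6 in the BP range and BE 7 and BE 8 in the BdE range. Hes1 had a log2 fold change of 0.59 (SE 0.128) in BdE. It was 0.41 (SE 0.195) in BE, and 0.60 (SE 0.137) without BE 6. Hes1 is short, at 2.32 kb, and its value in BdE was 0.49 with the length trend removed.

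Heyl (chr4:123233556-123249875, plus strand), a target of Notch3 in mural cells, went the other way. It lay at 10.1, 14.6 and 12.5 CPM in BP, at 12.4, 7.12 and 7.23 CPM in BE, and at 10.3, 6.39 and 7.84 CPM in BdE. BE 6 lay inside the BP range and BdE 5 at its lower edge, and the other 4 exosome libraries were below it. The log2 fold change was -0.47 (SE 0.279) in BE, -0.79 (SE 0.240) in BE without BE 6, and -0.60 (SE 0.223) in BdE. Hey1 (chr3:8663359-8667256, minus strand), a target of Notch in endothelium, was below the filter, with 53 to 155 counts per library. It lay at 1.17, 1.55 and 1.08 CPM in BP, at 2.22, 1.25 and 1.08 CPM in BE, and at 0.775, 1.34 and 1.84 CPM in BdE, and the groups overlapped. Other HES and HEY genes of the list were low as well. Hes5 had 0 counts in 6 libraries and at most 9 counts in any; Hes7 stayed at or under 0.497 CPM and Hey2 at or under 1.63 CPM.

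Gxylt1 (chr15:93239742-93275179, minus strand), the enzyme that adds the first xylose to O-glucose on EGF repeats, lay at 57.0, 55.3 and 68.2 CPM in BP. It lay at 51.4, 7.20 and 6.24 CPM in BE, and at 52.9, 48.9 and 42.8 CPM in BdE. The 2 low libraries had 478 and 406 counts, against 2729 to 4732 counts in the other 7, so their level is well above the limit that a count of 0 allows. The BP mean was 8.36 and 9.64 times the levels in BE 7 and BE 8. Because BE 6 was not low, the log2 fold change of BE against BP had a wide error, -1.48 (SE 0.717). Without BE 6 it was -3.16 (SE 0.157), and BdE against BE, which was 1.16 (SE 0.712) with all libraries, became 2.84 (SE 0.154). BE 6 was left out with its values known, so the smaller SEs follow from that choice. The BdE libraries also lay below every BP library, at a log2 fold change of -0.32 (SE 0.1198), or -0.22 with the length trend removed.

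A level that low in BE 7 and BE 8 was uncommon among other genes. After the Gxylt1 values had been seen, it was counted that in 11 of 14570 genes tested (0.0755%), Gxylt1 included, both libraries lay at least 4 times below the lowest of the other 7 libraries. In 0 genes did both lie at least 4 times above the highest of them. The filter bears on this count. A gene that reached an FPKM of 1 only in BE 7 and BE 8 was not tested, while a gene low only there could be. The 11 and the 0 are therefore not compared. A lower level of any size in both libraries than in all others was found in 1248 genes (8.57%). Among the other Notch pathway genes tested, Adam10 had the largest such separation, at 1.20 times. Next, 4 flanking genes on chromosome 15 were taken. Genes with few counts were passed over in choosing them, so not all lie close to Gxylt1. Yaf2 had 2131 and 2176 counts (unscaled) in BE 7 and BE 8, against 1626 to 2037 in BP. Zcrb1 was higher there too, at 5197 and 4951 counts against 2964 to 4124. Lrrk2 (chr15:91673175-91816120) was lower, at 3121 and 3480 counts against 4154 to 5478. Abcd2 (chr15:91145871-91191799) lay inside the BP range, at 2750 and 2530 counts against 2180 to 2888. BdE differed from BP in the same direction for Yaf2 (2101 to 2248 counts), Zcrb1 (4590 to 5132) and Lrrk2 (3337 to 4074). Abcd2 had 2354 to 3425 counts in BdE.

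The genes whose pattern over the 9 libraries was most like that of Gxylt1 were Kctd12 (Pearson r of log2 CPM 0.989), Ugt1a7c (0.979), Parg (0.972), Afg1l (0.96) and Vps54 (0.958), out of 12182 genes compared. All 5 were low in BE 7 and BE 8. Kctd12 had 0 counts in both, which allows up to 0.0433 and 0.0439 CPM, and 87.2 to 141 CPM elsewhere, and Ugt1a7c had 3.81 and 2.15 CPM against 33.8 to 128 CPM. Likeness rested on those libraries for most of them: over the other 7, r was -0.03 for Kctd12, 0.75 for Ugt1a7c, 0.85 for Parg, 0.02 for Afg1l and 0.43 for Vps54. For Hes1 the most alike were Hyi (0.993), Lsm8 (0.987) and Anapc13 (0.983).

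Pofut1 (chr2:153241533-153270247, plus strand), the fucosyltransferase needed for ligand binding by Notch, lay at 54.6, 54.6 and 55.2 CPM in BP. It lay at 57.1, 51.9 and 39.5 CPM in BE and at 48.6, 53.5 and 40.7 CPM in BdE. BE 8 and BdE 7 were the lowest, and all BdE libraries lay below the BP libraries, which were nearly equal. The log2 fold change was -0.15 (SE 0.153) in BE and -0.20 (SE 0.109) in BdE, and in BdE it was -0.06 with the length trend removed. No other enzyme listed for this sugar modification lay 4 times below the remaining libraries in BE 7 and BE 8. Xxylt1, which acts directly after Gxylt1, lay at 8.78 and 9.98 CPM there against 13.6 to 15.7 CPM in BP. Poglut1, which acts before it, lay at 23.5 and 19.7 CPM against 22.4 to 26.2 CPM. Gxylt2, the paralog of Gxylt1, was below the filter and lay at 2.05 and 2.77 CPM there against 3.20 to 4.08 CPM in BP.

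**Figure D2:**
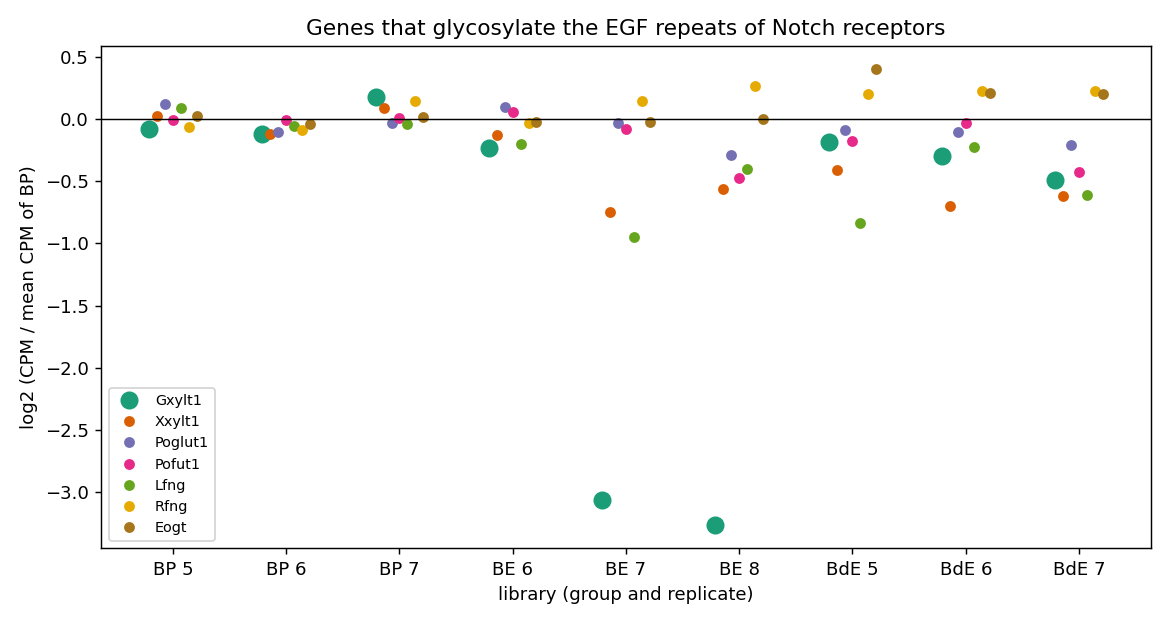
Log2 of CPM over the BP mean (vertical axis) for 7 genes that add sugars to EGF repeats, in each library (horizontal axis, group and replicate); the line at 0 is the BP mean. Gxylt1 (large points) is far below the other 6 genes in BE 7 and BE 8, where it had 7.20 and 6.24 CPM, and within 0.5 of the BP mean on the log2 scale in the remaining libraries.

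**Figure D3:**
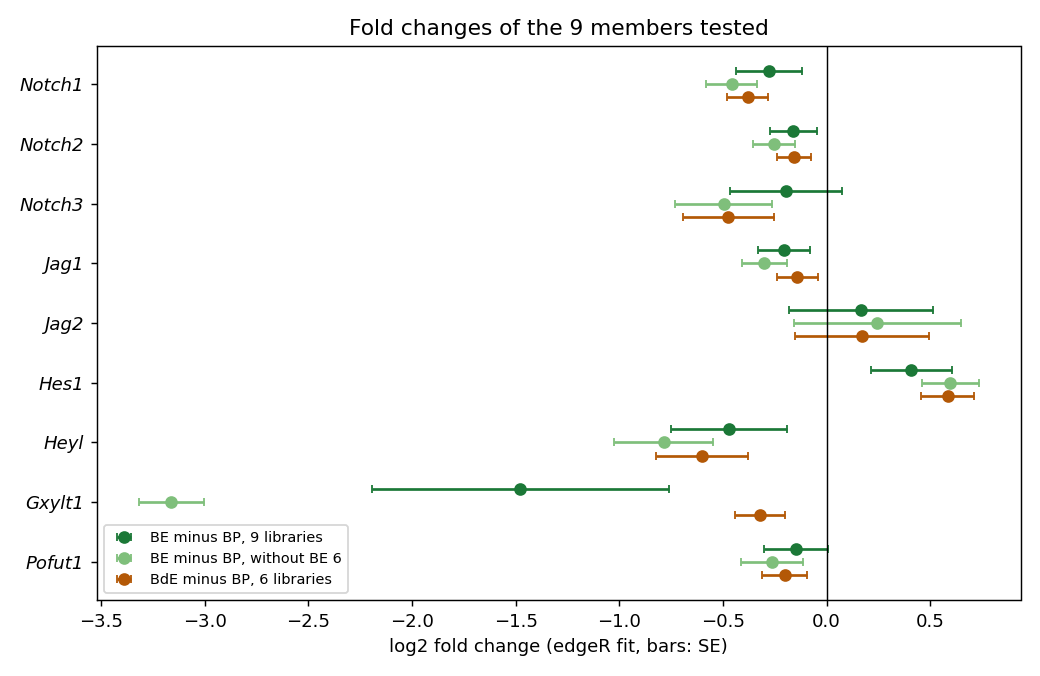
Log2 fold changes (horizontal axis) with SE bars of the 9 genes tested, for BE against BP with all libraries, BE against BP without BE 6, and BdE against BP. Gxylt1 moved from -1.48 to -3.16 when BE 6 was left out, and the other 8 genes lay between -0.79 and 0.60 in all 3 fits. BE 6 was singled out with its values known.

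Counted against all genes, 0 of the 9 genes tested passed an adjusted p of 0.05 in edgeR's quasi-likelihood test of BE against BP, where 0.0137% of all genes did (2 of 14570). In the same model 0 passed in BdE against BP and 0 in BdE against BE, beside 0.00686% of all genes in each. Without adjustment, 0, 2 and 0 of the 9 had a p under 0.05, beside 12.8%, 24.1% and 2.33% of all genes, and DESeq2 called 0 in each. In the 6 BP and BdE libraries alone 2 of the 9 passed, Notch1 (lower) and Hes1 (higher), where 21.1% of all genes did (9.2% higher and 11.9% lower); leaving out any 1 of the 6 libraries left 1 (without BdE 5) or 0 of the 9. Without BE 6 the comparison of BE with BP called 4, Notch1, Hes1, Heyl and Gxylt1, beside 29.9% of all genes. In the same fit, BdE against BP called 2, Notch1 and Hes1, beside 22.4%, and BdE against BE called 1, Gxylt1, beside 0.0343%. Groups that did not overlap were found for 1 of the 9 genes in BE against BP (Gxylt1, lower), beside 14.6% of all genes, 7.31% in either direction. In BdE against BP they were found for 1 gene higher (Hes1), beside 21.2% of all genes, and 5 lower (Notch1, Notch3, Jag1, Gxylt1 and Pofut1), beside 22.8%, which makes 44% of all genes in all. In BdE against BE they were found for 0 of the 9, beside 5.12%. Since the genes were chosen with such values known, nothing is read from these counts. The median log2 fold change of the 9 was -0.20 in both BE and BdE against BP, where the medians over all genes were 0.00 and 0.01.

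Other steps of the pathway were followed in 54 further genes listed for their role, of which 41 were tested. This list too was drawn up with earlier results of these libraries known, so its counts are not an independent test. In the 6 BP and BdE libraries 14 of the 41 passed an adjusted p of 0.05 in edgeR's quasi-likelihood test, beside 21.1% of all genes. Of the 14, 2 rose and 12 fell, beside 9.2% and 11.9% of all genes. With the length trend removed both counts differed, and they are given below without a share of all genes. In the fit of all 9 libraries 0 passed in BE against BP, in BdE against BP or in BdE against BE. Without adjustment 6, 13 and 1 had a p under 0.05, beside 12.8%, 24.1% and 2.33% of all genes, and DESeq2 called 0 in each. Leaving out 1 of the 6 libraries in turn left 3 to 10 genes past the threshold: 3 without BP 6 or BP 7, 4 without BP 5 or BdE 7, 9 without BdE 5 and 10 without BdE 6. The number of all genes called also differed between these fits, over a range given in the last section. Its value in each fit is not given, so nothing is read from these counts. Without BE 6, 14 passed in BE against BP, 3 higher and 11 lower, beside 13.7% and 16.2% of all genes. The median log2 fold change of the 41 was -0.10 in BE and -0.21 in BdE against BP.

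Among the 41 tested genes the largest fall in BdE was in Cyp26b1, which degrades retinoic acid in Sertoli cells and has been reported in mouse as repressed downstream of Notch. It lay at 212, 236 and 273 CPM in BP, at 213, 75.6 and 89.0 CPM in BE, and at 164, 92.6 and 82.2 CPM in BdE. BE 6 was again with BP, and BE 7 and BE 8 with the lower BdE libraries. The log2 fold change in BdE was -1.09 (SE 0.272, adjusted p = 0.0376, edgeR). Gdnf, a growth factor for spermatogonia reported as repressed in the same way, had a log2 fold change of 0.34 (SE 0.246, adjusted p = 0.358, edgeR) and did not pass.

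Among the genes for receptor cleavage, 4 of 10 fell and 0 rose in BdE in the 6 libraries, beside 11.9% and 9.2% of all genes; 0 passed with all 9 libraries. Furin, which cuts the receptor as it matures, lay at 248, 258 and 291 CPM in BP and at 194, 177 and 179 CPM in BdE, a log2 fold change of -0.54 (SE 0.0795, adjusted p = 0.0107, edgeR). Adam10, the protease that cuts after ligand binding, lay at 187, 185 and 196 CPM in BP and at 141, 154 and 113 CPM in BdE, a log2 fold change of -0.48 (SE 0.117, adjusted p = 0.0354, edgeR). In both genes the BdE libraries lay below all BP libraries. Adam10 was lower still in BE 7 and BE 8, at 29.5 and 94.0 CPM, beside 185 CPM in BE 6. Aph1b, a subunit of gamma-secretase, fell by 0.56 on the log2 scale in BdE. Psenen, another subunit, had a log2 fold change of 0.71 (adjusted p = 0.0506, edgeR) and did not pass.

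In the nuclear complex 6 of 10 genes passed in BdE in the 6 libraries, 5 lower and 1 higher, beside 21.1% of all genes (11.9% lower and 9.2% higher); 0 passed with all 9 libraries. Ep300, a histone acetyltransferase that RBPJ complexes recruit, lay at 133, 129.8 and 146 CPM in BP and at 98.8, 96.3 and 99.9 CPM in BdE. Its log2 fold change was -0.47 (SE 0.0654, adjusted p = 0.00979, edgeR). The groups were well apart. Maml1, the coactivator that bridges Notch and EP300, fell by 0.54, Spen, a corepressor of RBPJ, by 0.56, and Snw1, a coactivator and splicing factor, by 0.47 on the log2 scale. Kat2a, another histone acetyltransferase, rose from 90.3, 93.2 and 98.5 CPM in BP to 156, 116 and 134 CPM in BdE, a log2 fold change of 0.52 (SE 0.115, adjusted p = 0.0265, edgeR).

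Of the 2 tested genes for ligand ubiquitination, Mib1, which lets ligands be internalised, lay at 74.1, 63.3 and 66.3 CPM in BP and at 43.8, 48.9 and 41.3 CPM in BdE. All BdE libraries were below BP, and the log2 fold change was -0.61 (SE 0.0985, adjusted p = 0.0134, edgeR). Among the other glycosylation genes 1 of 8 passed, Xxylt1, at 11.1, 9.12 and 9.60 CPM in BdE, with a log2 fold change of -0.57 (SE 0.123, adjusted p = 0.0256, edgeR). Among 8 genes for receptor turnover 1 passed, Dtx3, a ubiquitin ligase of the Deltex family, which rose by a log2 fold change of 0.65 (SE 0.147, adjusted p = 0.0289, edgeR). Dll4, the only other ligand or receptor tested, had a log2 fold change of -0.28 (SE 0.248) and did not pass. With the length trend removed 10 of the 41 genes passed in BdE, 6 lower and 4 higher, in place of 12 lower and 2 higher. The share of all genes called in that fit is not given here, so nothing is read from this count. Of the genes named as fallen, Adam10 (log2 fold change -0.41), Aph1b (-0.49), Spen (-0.41) and Snw1 (-0.37) kept most of their size but did not pass there (adjusted p = 0.053, 0.055, 0.0922 and 0.088, edgeR), while Cyp26b1, Furin, Ep300, Maml1, Mib1 and Xxylt1 did.

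In BE against BP with all 9 libraries, the smallest p-values of the list belonged to Aph1b (log2 fold change -0.55), Xxylt1 (-0.46), Aph1a (-0.38) and Furin (-0.45), each with an adjusted p of 0.38 (edgeR), and none passed. In BdE against BP in that fit they belonged to Mib1, Dtx3, Maml1 and Xxylt1, each with an adjusted p of 0.19 (edgeR). In BdE against BE they belonged to Eogt (0.29), Fbxw7 (0.73), Mib1 (-0.32) and Psen2 (-0.26), each with an adjusted p of 0.999 (edgeR). Eogt, which adds N-acetylglucosamine to EGF repeats, lay at 27.2, 23.7 and 23.7 CPM in BdE, above all BE libraries (20.2, 20.2 and 20.5 CPM). Fbxw7 is the ligase adaptor that marks the Notch intracellular domain for degradation.

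**Figure D4:**
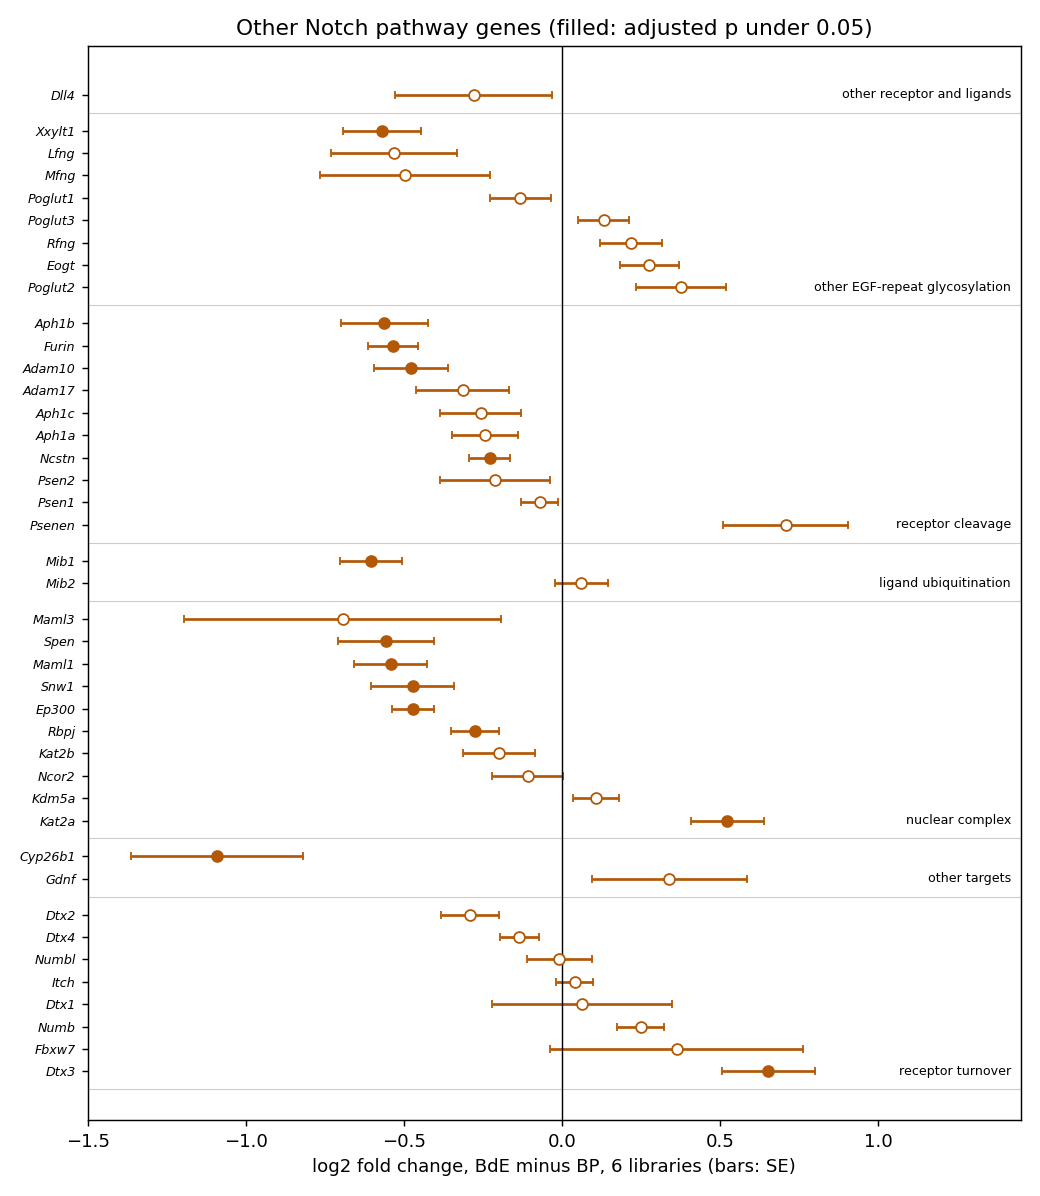
Log2 fold changes of BdE against BP in the 6 libraries (horizontal axis) with SE bars for the 41 other Notch pathway genes tested, grouped by role; filled points have an adjusted p under 0.05. Of the 14 filled points 12 are left of 0, with Cyp26b1 at -1.09 the farthest, and Kat2a (0.52) and Dtx3 (0.65) are right of it. With the length trend removed (not plotted), the number of genes passing and its split differed, and nothing is read from those counts.

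Levels of cell type markers differed between the same libraries. The summed level of 8 endothelial markers was 29.8 to 34.2 FPKM in BP and 37.9 FPKM in BE 6, but 21.03 and 17.7 FPKM in BE 7 and BE 8 and 21.5 to 25.9 FPKM in BdE. For 6 mural cell markers it was 26.2 to 29.5 FPKM in BP and 29.2 FPKM in BE 6, against 17.3 and 15.6 FPKM in BE 7 and BE 8 and 15.1 to 20.2 FPKM in BdE. Both lists were thus low in the libraries where Notch1, Notch3 and Heyl were low. The 7 Sertoli markers summed to 575 to 614 FPKM in BP and 574 FPKM in BE 6, and to 765 and 689 FPKM in BE 7 and BE 8 and 638 to 747 FPKM in BdE, so the sum was high where Hes1 was high. Cldn11 makes up more of that sum than any other marker, and Wt1 and Sox9 had lower means in BE and BdE than in BP (for Wt1, BP libraries averaged 44.3 ± 12.3 FPKM, BE libraries 28.9 ± 2.03 FPKM and BdE libraries 30.8 ± 2.19 FPKM; SD, n = 3). No marker of these 3 lists was at 0 throughout. In BdE against BP, 3 of 7 endothelial and 2 of 6 mural markers tested fell (edgeR, 6 libraries), beside 11.9% of all genes. Of the 7 Sertoli markers 2 rose, beside 9.2% of all genes. The part of these cell types in the values of the Notch genes was not tested.

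Markers of interstitial cells were lower in the same libraries too: 6 macrophage markers summed to 224 to 235 FPKM in BP and 234 FPKM in BE 6. The macrophage sum was 102 and 136 FPKM in BE 7 and BE 8, and 128 to 174 FPKM in BdE. Stromal fibroblast markers summed to 123 to 136 FPKM in BP and 136 FPKM in BE 6. Their sum was 61.3 to 63.2 FPKM in BE 7 and BE 8, and 70.1 to 97.1 FPKM in BdE. The summed level of early germ cell markers overlapped between groups, at 14.6 to 24.4 FPKM in BP, 18.8 to 24.6 FPKM in BE and 19.7 to 21.6 FPKM in BdE. Of the 4 early germ cell markers tested, 2 did not overlap between BP and BdE, beside 44% of all genes. Zbtb16 fell from 14.8 to 26.04 CPM in BP to 5.30 to 10.7 CPM in BdE (edgeR, 6 libraries). Id4 rose from 25.9 to 29.2 CPM to 35.04 to 42.7 CPM (edgeR, 6 libraries). Leydig cell markers summed to 8584 to 9541 FPKM in BP and 9376 FPKM in BE 6. Their sum was 7467 and 7794 FPKM in BE 7 and BE 8, and 8921 to 10630 FPKM in BdE. Insl3 makes up most of that sum. In BdE against BP 6 of the 7 Leydig markers had a negative log2 fold change (median of the 7 -0.87, edgeR, 6 libraries). Of the 7, 4 fell (edgeR, 6 libraries), beside 11.9% of all genes. Star lay at 706 ± 153 CPM in BP and 330 ± 73.9 CPM in BdE (SD, n = 3). Peritubular myoid markers were at 227 to 239 FPKM in BP, 119.7 and 125 FPKM in BE 7 and BE 8, and 138 to 186 FPKM in BdE. For this list BE 6, at 209 FPKM, also lay below every BP library. Spermatocyte and spermatid markers varied most, at 10.5 to 15.2 FPKM in BP, 26.1 to 95.6 FPKM in BE and 7.38 to 65.1 FPKM in BdE. Odf1 had the highest mean of these 7 markers in each group. It averaged 7.28 ± 1.25 FPKM in BP, 43.2 ± 32.2 FPKM in BE and 36.4 ± 30.6 FPKM in BdE (SD, n = 3), so the sum largely follows 1 gene. Of the 4 markers tested, 0 passed in BdE against BP (edgeR, 6 libraries), beside 21.1% of all genes. No list sum was as far below BP in BE 7 and BE 8 as Gxylt1, but a sum can hide larger falls of single markers. Cyp11a1 had a lowest BE library of 187 CPM against a BP mean of 976 CPM, and Adgre1 had 4.68 against 21.5 CPM. The part of cell types in the Gxylt1 values was not tested.

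**Figure D5:**
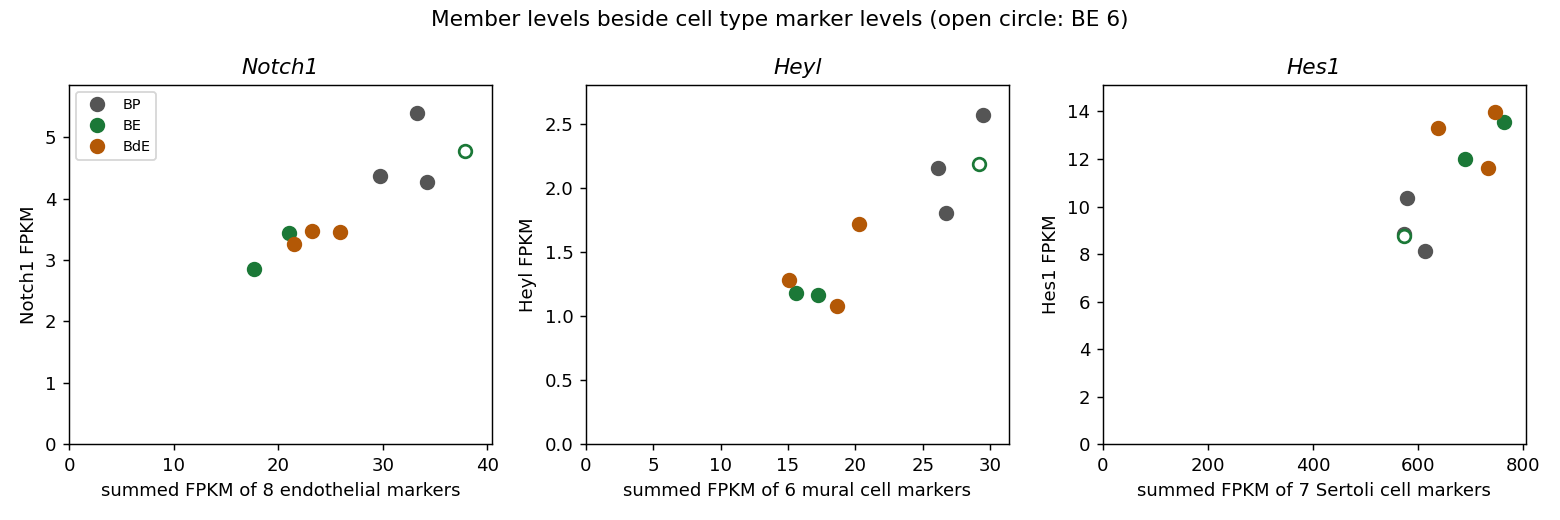
FPKM of Notch1, Heyl and Hes1 (vertical axes) against the summed FPKM of 8 endothelial, 6 mural and 7 Sertoli cell markers (horizontal axes) in each library; colours are the groups and the open circle is BE 6. BP and BE 6 lie at the high end of the endothelial and mural axes (29.8 to 37.9 and 26.2 to 29.5 FPKM) and at the low end of the Sertoli axis (574 to 614 FPKM).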

How the data were processed

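RNA was measured in 9 mouse testis libraries, 3 per group. The deposited table holds, per the file headers, a read count and an FPKM value per gene; FPKM is the count per kilobase of gene, scaled by the authors to the library. The submitters' processing notes name Bowtie 0.12.2 and mm8 without roles. The coordinates are those of GRCm38, since 51957 of 55401 genes (93.8%) match GENCODE M21 in start and end. How reads were assigned to genes, and whether by strand, is not given in the sources used.

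Counts were tested with edgeR 4.0.16 (R 4.3.3), quasi-likelihood with TMM scaling, after a filter of FPKM of at least 1 in at least 3 libraries. 1 model held all 9 libraries and another held BP and BdE alone. The biological coefficient of variation was 28.8% in the first and 25.1% in the second. Benjamini-Hochberg adjustment ran over 14570 genes, with a threshold of 0.05. The p-values measure only the spread between these samples, which may be technical. Libraries with the same replicate number did not deviate together (r -0.097 to 0.21 over 7 pairs), so no pairing was used.

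The 10 genes, the 54 other pathway genes and the marker lists were chosen with earlier results of these data known. All 10 genes are named, as are up to 12 of the other pathway genes past the threshold by size of change or, where fewer than 4 passed, the 4 smallest p-values. Other genes with values (Psenen, Gdnf, Dll4, Gxylt2, Poglut1, Hes5, Hes7, Hey2) were named after their values were seen. DESeq2 1.42.0, limma 3.58.1 on log2(FPKM + 1) and other settings were alternatives. Floors (3 counts) cover counting error only.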

Additional observations from a re-analysis of the deposited data

How the results depend on the processing

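Against BP, directions held for 8 of the 9 genes. A fold change counted as moved where it shifted by at least the gene's own SD between libraries within the groups compared. Over all comparisons, 632 fold changes under 19 alternatives (16 for the 6 libraries) did not move by this rule and 13 did. The rule is loose for genes with a wide spread: Jag2 in BE against BP, at 0.17, ran from -0.14 to 0.62 and never counted as moved. No called value changed sign, which covers only the 2 values called in the main fits. Against BP, only Jag2 changed direction in any alternative. In BdE against BE, where most values were near 0, 7 of the 9 changed direction in at least 1 alternative, all but Gxylt1 and Jag1. All 9 libraries gave 2, 1 and 1 genes past the threshold (BE against BP, BdE against BP, BdE against BE). DESeq2 gave 61, 385 and 25; limma on log2(FPKM + 1) or (FPKM + 0.1) gave 1 in BE and 2 in BdE against BP. BdE against BP gave 2 with upper quartile scaling or a length offset and 3 without a filter or with FPKM of at least 1 in every library; BdE against BE gave 2 without a filter. Limma voom with sample quality weights gave 5233, 5034 and 12, with 18 and 18 other pathway genes against BP and 4, 2 and 1 of the 10 genes.

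The 6 libraries gave 3078 genes, 14 other pathway genes and 2 of the 10. Without a filter these were 1719, 4 and 0; with upper quartile scaling or a length offset 1 of the 10 was called. With the replicate number as a block, a pairing that the deviations did not bear out, all 4 comparisons gave 0 genes, 0 other pathway genes and 0 of the 10.

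Leaving out 1 library gave 0 to 4351 genes in BE against BP, 0 to 3257 in BdE against BP, 0 to 6 in BdE against BE and 743 to 3140 in the 6 libraries. Other pathway genes ranged over 0 to 14, 0 to 13, 0 to 0 and 3 to 10, and the 10 genes over 0 to 4, 0 to 2, 0 to 1 and 0 to 1. The high ends in the first pair, and the 4, 2 and 1 of the 10, came without BE 6, the library known to lie with BP. In the 6 libraries, the pathway count was 3 without BP 6 or BP 7, 4 without BP 5 or BdE 7 and 9 without BdE 5. The number of all genes in each of these fits is not given, so nothing is read from these counts. Gxylt1, Notch3 and Jag2 have no value under the filter on every library.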
